A study of Cucumis melo with 4 samples.

Results

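Floral organ identity in melon (Cucumis melo) was described through 6 unigenes (transcript sequences assembled from the reads) out of 76260 in all. They were chosen by their annotation, as the unigenes named APETALA 1, PMADS 2, DEFICIENS, AGAMOUS, MADS-box transcription factor 3 and AGL6, and the rule itself uses no level. Their levels were followed in 4 RNA-seq libraries, 1 for each sex type of the plant. Every one of the 6 passed the filter on low values used for the tests.

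MADS-domain proteins bind DNA as dimers and act in flowers in larger complexes. In the ABC model, worked out in Arabidopsis and Antirrhinum, A class genes specify sepals and, with B class genes, petals, while B with C class genes specify stamens and C class genes alone specify carpels. E class proteins, to which AGL6 is related, join the other classes in these complexes. In melon, flowers become male or female when stamens or carpels stop growing after they have been laid down, so a bud on the way to a male or a female flower starts with both organs.

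Monoecious plants (labelled AAGG) bear male and female flowers, and gynoecious plants (AAgg) bear female flowers. Hermaphrodite plants (labelled aaGG) bear bisexual flowers, and andromonoecious plants (labelled aagg) bear male and bisexual ones. In the deposited locus tables the headers swap the genotypes of the last pair, with aaGG for andromonoecious and aagg for hermaphrodite, so the g locus is called labelled wherever it follows the sample labels. Each library is a bulk: RNA was prepared line by line from recombinant inbred lines, and equal amounts were then pooled. The tissues were true leaves of plants with 2 true leaves, young leaves with axillary buds taken 1 week after the plants were moved, flower buds shorter than 2 mm and flower buds shortly before opening. A library therefore averages over lines, organs and stages, and a difference can come from the share of buds or from their RNA: fewer cells of a type and less RNA per cell cannot be told apart.

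The libraries held 25.51 to 27.04 M reads, and the median level of tested unigenes was 3.43 to 3.83 RPKM, the reads of a unigene per kilobase of its length and per M reads of the library. The hermaphrodite library ran on a flow cell of its own while 3 libraries shared one, so flow cell and sex type cannot be told apart for it. With 1 library per sex type there was no replicate check of any single library. Intervals are at 95% and cover counting error only. Summed levels of leaf photosynthesis unigenes (15 found) were 111 RPKM in the monoecious, 87.7 in the gynoecious, 115 in the hermaphrodite and 103 in the andromonoecious library. Pollen and anther unigenes (6 found, none at 0 in any library) summed to 33.4, 35.9, 42.9 and 21.6 RPKM in the same order. Unigenes of dividing cells, the cyclins and core histones (49 found), summed to 446, 937, 779 and 797 RPKM. No unigene was annotated with a pistil or ovule word. The dividing cell sum was lowest in the monoecious library and the pollen and anther sum was lowest in the andromonoecious one.

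The annotation gives each unigene a name and a melon coding sequence (CDS). Set beside them here is the unigene's best-scoring BLAST match to a melon CDS, and these matches were uneven. Whether the matched CDS is the annotated one was not checked. AGAMOUS, Unigene21628_All, annotated with MELO3C007181, had a match of 100% identity over 1201 nt, or 67.8% of the unigene. MADS-box transcription factor 3, Unigene12951_All, annotated with MELO3C000260, had one of 99.57% over 701 nt, or 68.5%. The B class unigenes also matched closely, PMADS 2 (Unigene20965_All, MELO3C010515) at 99.47% over 374 nt and DEFICIENS (Unigene45995_All, MELO3C003778) at 100% over 230 nt. The other matches were shorter, which makes those names less firm still. AGL6, Unigene29571_All, annotated with MELO3C022516, had a match of 97.74% over 133 nt, 10.6% of the unigene. It lay at bases 4 to 136 of the matched CDS, near the start, where MADS proteins carry their conserved DNA-binding domain. APETALA 1, Unigene11035_All, annotated with MELO3C011409, had a match of 80.52% over 154 nt, 12.5% of the unigene, the lowest identity of the 6. This unigene may be a relative of the gene it is named after, so APETALA 1 is used below as a name only. No second unigene was annotated with any of these CDS, and the product names come from proteins of other species. None of the 6 CDS identifiers occurs in the RefSeq gene table of assembly USDA_Cmelo_AY_1.0, so no coordinates are given.

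By RPKM each gene had its own order of libraries, although many steps between neighbours in that order lay within counting error. APETALA 1 is named after the A class gene that in Arabidopsis also gives the young flower its meristem identity. The unigene had 67 monoecious, 220 gynoecious, 117 hermaphrodite and 185 andromonoecious reads. Its levels were 2.07, 6.86, 3.52 and 5.90 RPKM in the same order. The gynoecious and andromonoecious libraries lay together at the top, since their ratio after TMM scaling (edgeR's correction for library composition) was 1.02 with an interval of 0.838 to 1.25. Hermaphrodite and then monoecious followed, with each step down beyond counting error. The dividing cell sum was also lowest in the monoecious library, at 446 RPKM against 779 to 937 in the others, and its part in the APETALA 1 levels was not tested. The gynoecious level was 3.03 times the monoecious (2.29 to 4.04), while the median unigene among the 49319 tested had a highest over lowest ratio of 2.65 (quartiles 1.84 and 4.62).

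The B class gives petals and stamens, and in Arabidopsis and Antirrhinum its partners work as a pair of unlike proteins. PMADS 2 is a Petunia protein of the PISTILLATA and GLOBOSA type, and DEFICIENS of Antirrhinum is of the APETALA 3 type. PMADS 2 had 88 monoecious, 39 gynoecious, 74 hermaphrodite and 133 andromonoecious reads, or 4.13, 1.85, 3.39 and 6.46 RPKM. It was highest in the andromonoecious library and lowest in the gynoecious, with a ratio of 3.96 (2.75 to 5.82) between them. The monoecious and hermaphrodite libraries did not differ beyond counting error (1.35, 0.978 to 1.86). DEFICIENS had 10 monoecious, 25 gynoecious, 18 hermaphrodite and 0 andromonoecious reads, or 0.87, 2.20, 1.53 and 0.00 RPKM. It was thus undetected in the library where PMADS 2 was highest, and highest where PMADS 2 was lowest.

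A count of 0 allows up to 3 reads, which would be 0.27 RPKM in the andromonoecious library. With 3 reads in its place, DEFICIENS was at least 7.17-fold higher in the gynoecious, at least 4.94-fold in the hermaphrodite and at least 3.11-fold in the monoecious library, taking the reads of those libraries as exact. With their counting error included, the lower limits of the exact intervals were 5.41, 3.62 and 2.09. Among the 3 libraries with reads, the neighbours in order did not differ beyond counting error, at 1.45 (0.761 to 2.82) for gynoecious over hermaphrodite and 1.59 (0.695 to 3.85) for hermaphrodite over monoecious. DEFICIENS was the thinnest of the 6, with 53 reads in all against 173 to 589 for the others. Its 436 nt unigene had its BLAST match at bases 182 to 411 of a CDS, so the reads may cover only a fragment of the transcript. The summed pollen and anther level was also lowest in the andromonoecious library, at 21.6 RPKM against 33.4 to 42.9 in the others, and its part in the DEFICIENS value was not tested.

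The C class forms stamens with the B class, forms carpels, and ends the floral meristem. AGAMOUS, named after the tobacco protein, had 204 monoecious, 109 gynoecious, 129 hermaphrodite and 90 andromonoecious reads, or 4.36, 2.36, 2.69 and 1.99 RPKM. The monoecious library stood above the other 3, which did not differ from their neighbours beyond counting error. The monoecious level was 2.11 times the andromonoecious (1.64 to 2.74). MADS-box transcription factor 3, a C class protein of rice, had 30, 64, 47 and 32 reads in the order monoecious, gynoecious, hermaphrodite and andromonoecious, or 1.11, 2.40, 1.70 and 1.23 RPKM. It was highest in the gynoecious library and lowest in the monoecious, the library where AGAMOUS was highest. No step between neighbours exceeded counting error, but the highest did exceed the lowest, by 1.97 (1.26 to 3.15). Only 29.8% of tested unigenes had a smaller highest over lowest ratio than this one, and 34.9% a smaller one than AGAMOUS. The same share was 38.2% for AGL6, 57.4% for APETALA 1 and 69.7% for PMADS 2, with DEFICIENS left out for its count of 0.

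AGL6, which in rice and Petunia shares roles with the E class SEPALLATA genes, had 108 monoecious, 105 gynoecious, 175 hermaphrodite and 65 andromonoecious reads, or 3.26, 3.21, 5.16 and 2.03 RPKM. The hermaphrodite library stood highest and the andromonoecious lowest, 2.22-fold apart (1.66 to 2.99), while the monoecious and gynoecious libraries did not differ beyond counting error (1.12, 0.844 to 1.47). The highest value comes from the library on the other flow cell. Within the 3 libraries that share a flow cell, the levels ran from 2.03 to 3.26 RPKM.

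**Figure D1:**
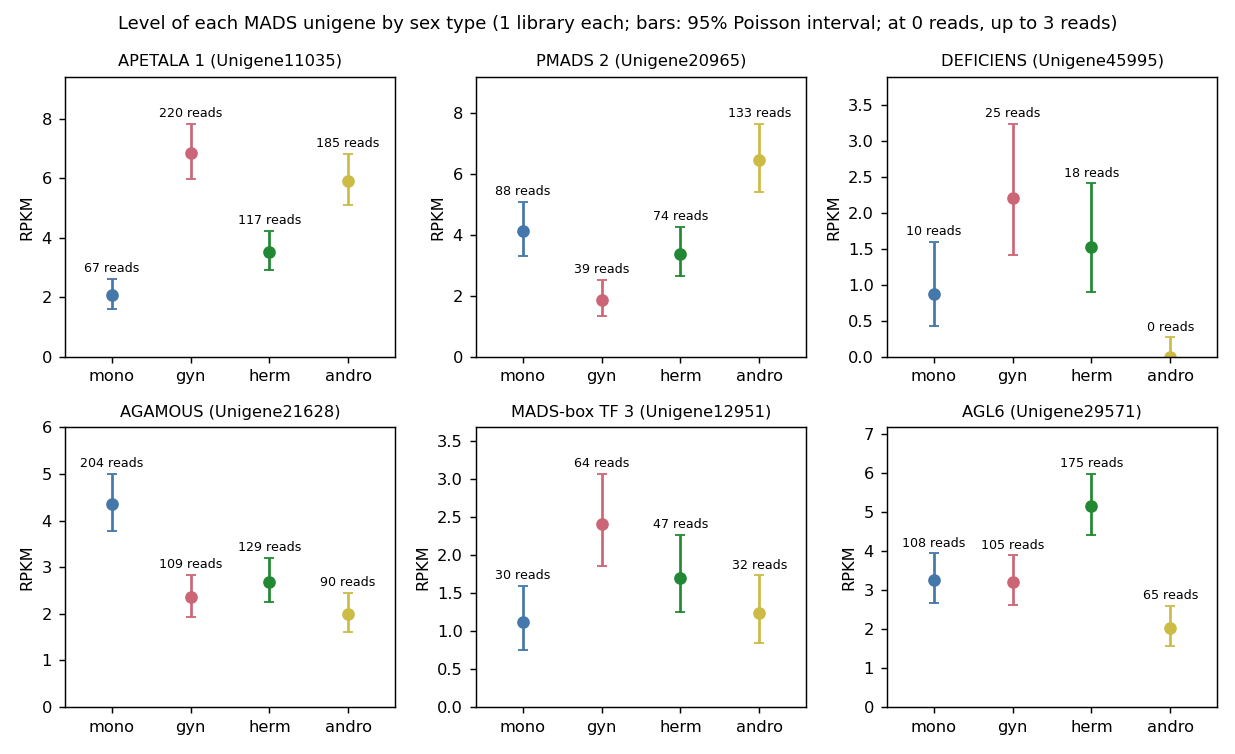
Level of each unigene in RPKM (vertical axis, from 0) in the monoecious (mono), gynoecious (gyn), hermaphrodite (herm) and andromonoecious (andro) library, with its reads written above. Bars are 95% Poisson intervals, or reach up to 3 reads where there were 0. APETALA 1 peaked in the gynoecious library at 6.86 RPKM, PMADS 2 in the andromonoecious at 6.46, AGAMOUS in the monoecious at 4.36 and AGL6 in the hermaphrodite at 5.16, while DEFICIENS had 0 andromonoecious reads.

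The 6 unigenes together made up a similar amount of RNA in each library, at 15.8 monoecious, 18.9 gynoecious, 18 hermaphrodite and 17.6 andromonoecious RPKM, while their shares shifted. APETALA 1 held 13.1% of the summed level in the monoecious library, 36.3% in the gynoecious, 19.6% in the hermaphrodite and 33.5% in the andromonoecious. The B class pair held 31.6%, 21.5%, 27.3% and 36.7% in the same order. The C class pair held 34.6%, 25.2%, 24.4% and 18.3%, most in the monoecious and least in the andromonoecious library. The summed B over C level was 0.914 monoecious, 0.852 gynoecious, 1.12 hermaphrodite and 2.01 andromonoecious, so the balance leaned to the B class most in the andromonoecious library. This sum rests there on PMADS 2 alone, because DEFICIENS had no read.

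Ratios of RPKM within a library do not depend on how libraries are scaled to each other. A ratio of 1 between unlike unigenes need not mean equal transcript levels, since a unigene can be a fragment and the handling of shared reads is not known. In the B class, the level of DEFICIENS relative to PMADS 2 was 0.21 in the monoecious library (0.0975 to 0.405), 1.19 in the gynoecious (0.688 to 2.01) and 0.45 in the hermaphrodite (0.253 to 0.761). In the andromonoecious library it was 0.0418 with 3 reads in place of 0, and the exact interval reached 0.0521. Only the gynoecious interval, which is wide, thus held 1, and PMADS 2 had the higher RPKM in the other 3. In the C class, the level of MADS-box transcription factor 3 relative to AGAMOUS was 0.255 monoecious (0.168 to 0.375), 1.02 gynoecious (0.735 to 1.4), 0.631 hermaphrodite (0.442 to 0.888) and 0.616 andromonoecious (0.398 to 0.931). Again only the gynoecious interval held 1, and the monoecious interval lay below the other 3.

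PMADS 2 and AGAMOUS, the B and C class unigenes with the most reads, stood at 0.947 monoecious (0.729 to 1.22), 0.786 gynoecious (0.53 to 1.14) and 1.26 hermaphrodite (0.933 to 1.69). In the andromonoecious library PMADS 2 was 3.24 times AGAMOUS (2.46 to 4.29), and this interval lay above those of the other 3. APETALA 1 over AGAMOUS was 0.474 monoecious (0.354 to 0.627) and 1.31 hermaphrodite (1.01 to 1.69), against 2.91 gynoecious (2.3 to 3.7) and 2.96 andromonoecious (2.29 to 3.86). A and C class genes repress each other's domains in Arabidopsis flowers. Here AGAMOUS was the higher of the pair only in the monoecious library. The weak match of the APETALA 1 unigene does not settle that it is the A class gene. DEFICIENS over MADS-box transcription factor 3 was nearly level in the libraries where both had reads, at 0.782 monoecious (0.341 to 1.64), 0.917 gynoecious (0.553 to 1.48) and 0.899 hermaphrodite (0.491 to 1.58). In the andromonoecious library it was 0.22 with 3 reads in place of 0, and the exact interval reached 0.287.

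**Figure D2:**
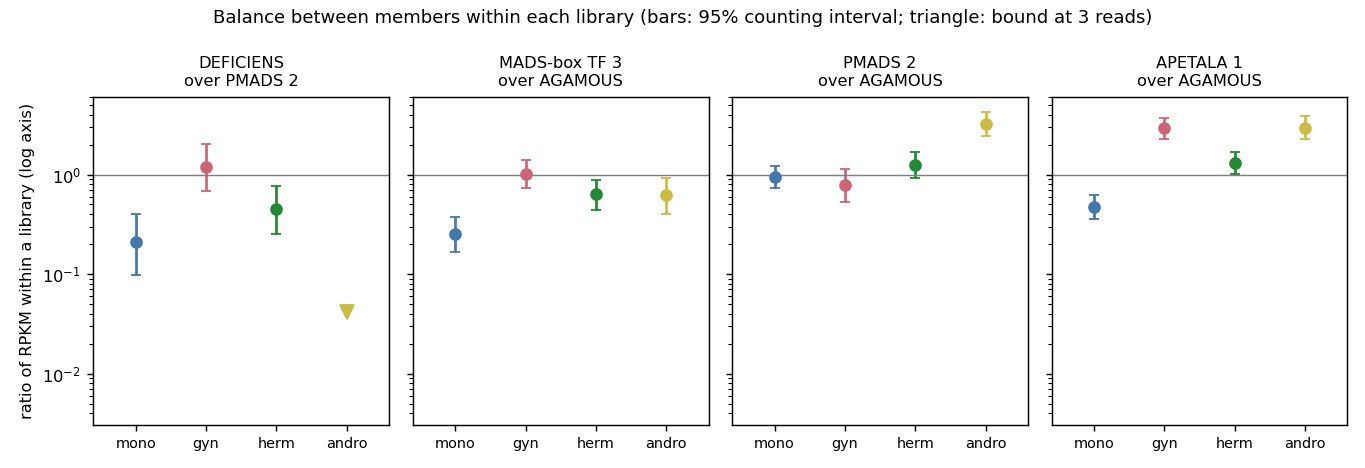
Ratio of the RPKM of a pair of unigenes within each library, on a log axis, with the grey line at 1. Bars are 95% counting intervals and the triangle is the bound at 3 reads. DEFICIENS over PMADS 2 ran from 0.0418, with 3 reads in place of 0, in the andromonoecious to 1.19 in the gynoecious library, and PMADS 2 over AGAMOUS reached 3.24 in the andromonoecious.

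Each pair of sex types was then compared for all 6 unigenes, which gave 36 ratios of TMM-scaled reads. Of these, 24 had an interval off 1, beside 60.5% of the ratios of all tested unigenes, and 30 had at least 50 reads in the pair. Among the 30, 8 were at least 2-fold and 0 at least 4-fold, the nearest being PMADS 2 at 3.96. Shares of all unigenes at 2-fold or 4-fold, here and for each pair below, are over those with at least 50 reads in the pair. At least 4-fold apart were 12% in gynoecious against monoecious, 4.87% in hermaphrodite against monoecious and 4.63% in andromonoecious against monoecious. The shares were 6.07% in hermaphrodite against gynoecious, 7.79% in andromonoecious against gynoecious and 3.81% in hermaphrodite against andromonoecious. Pairs that share a library are not independent of each other.

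The gynoecious against monoecious pair differs by the g allele in both sources of genotypes. The interval was off 1 for 5 of 6 members, as it was in andromonoecious against monoecious. Over all pairs and tested unigenes the share was 60.5%. It was not counted for this pair alone, where a larger share of unigenes was 2-fold apart than in any other pair. APETALA 1 (3.03, 2.29 to 4.04), MADS-box transcription factor 3 (1.97, 1.26 to 3.15) and DEFICIENS (2.31, 1.07 to 5.38) were higher in the gynoecious library. PMADS 2 (0.409, 0.273 to 0.602) and AGAMOUS (0.493, 0.387 to 0.625) were lower, and AGL6 did not differ beyond counting error (0.897, 0.679 to 1.18). At least 2-fold were 3 of the 5 with enough reads, where 37% of 34865 unigenes were. Within the B and C classes the unigenes thus went in opposite directions, DEFICIENS against PMADS 2 and MADS-box transcription factor 3 against AGAMOUS. The DEFICIENS ratio rests on 25 gynoecious against 10 monoecious reads, too few for the fold count. How often other unigenes went in opposite directions was not counted, so these directions are a description only.

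The hermaphrodite against andromonoecious pair shares aa and differs at g. PMADS 2 stood at 0.458 hermaphrodite over andromonoecious (0.34 to 0.613) and APETALA 1 at 0.521 (0.41 to 0.66). AGL6 was 2.22 times higher in the hermaphrodite library (1.66 to 2.99), and DEFICIENS was 4.94 times higher with 3 reads in place of 0 (lower limit of the exact interval 3.62). AGAMOUS (1.18, 0.895 to 1.56) and MADS-box transcription factor 3 (1.21, 0.756 to 1.96) did not differ beyond counting error, although intervals this wide leave room for a change of 1.5 times. At least 2-fold were 2 of 5, beside 21.2% of all unigenes.

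Andromonoecious over monoecious gave 2.96 for APETALA 1 (2.23 to 3.97), 1.62 for PMADS 2 (1.23 to 2.15), 0.473 for AGAMOUS (0.365 to 0.609) and 0.645 for AGL6 (0.467 to 0.886). At least 2-fold were 2 of 5, beside 22.3% of all unigenes. MADS-box transcription factor 3 did not differ beyond counting error there (1.14, 0.673 to 1.95). DEFICIENS stood at 0.322 in that pair with 3 reads in place of 0, and the exact interval reached 0.478. Hermaphrodite over monoecious gave smaller ratios, 1.54 for APETALA 1 (1.13 to 2.11), 0.558 for AGAMOUS (0.444 to 0.699) and 1.43 for AGL6 (1.12 to 1.83). None of the 5 with enough reads was 2-fold apart in that pair, beside 23.8% of all unigenes.

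Hermaphrodite over gynoecious gave 0.509 for APETALA 1 (0.403 to 0.64), 1.82 for PMADS 2 (1.22 to 2.75) and 1.59 for AGL6 (1.24 to 2.05), again with 0 of 5 at 2-fold beside 27.6%. Andromonoecious over gynoecious gave 3.96 for PMADS 2 (2.75 to 5.82), 0.581 for MADS-box transcription factor 3 (0.368 to 0.901) and 0.719 for AGL6 (0.52 to 0.989). Only PMADS 2 of the 5 was 2-fold apart in that pair, beside 28.3% of all unigenes. Summed over the pairs, 8 of the 30 ratios were at least 2-fold, which is near these background shares, so the size of the ratios does not set the members apart from other unigenes.

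**Figure D3:**
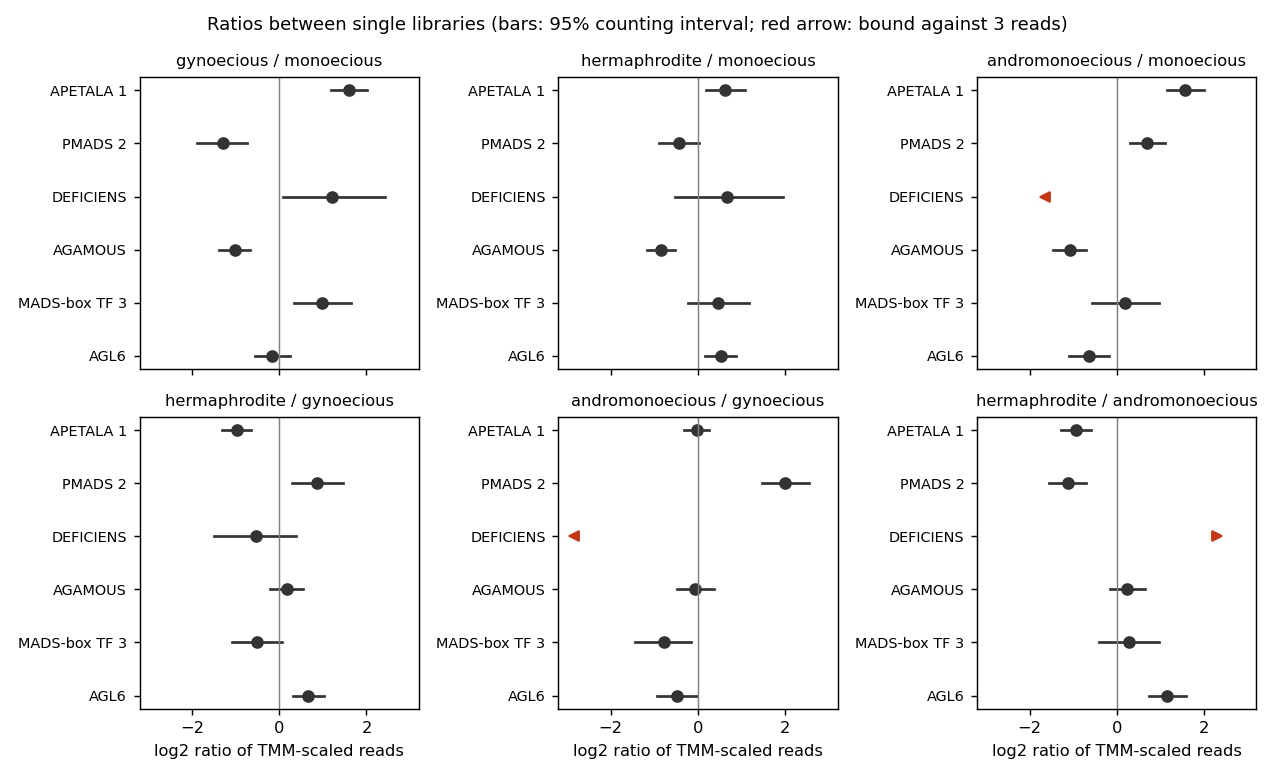
Log2 ratio of TMM-scaled reads between each pair of libraries (horizontal axis) for the 6 unigenes, with 95% counting intervals. Red arrows are bounds against 3 reads for DEFICIENS in the andromonoecious library. In gynoecious over monoecious, APETALA 1, DEFICIENS and MADS-box transcription factor 3 lie right of 0 while PMADS 2 and AGAMOUS lie left of it.

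The libraries can be set 2 against 2 in 3 ways, and each was fitted with limma on log2(RPKM + 1) over all 49319 tested unigenes. These splits use the same 4 libraries, and the spread within a side holds the other locus. The RPKM as deposited put the median of all unigenes at -0.119 in the male flower split, which TMM scaling moved to 0.001. None of the 6 unigenes passed an adjusted p of 0.05 in any split with limma or edgeR, and DESeq2 called none of the 5 to which it gave an adjusted p, leaving DEFICIENS without one. The limma calls over all unigenes were 6 in the a locus split (0.0122%) and 1 in the male flower split (0.00203%), with 0 in the labelled g split (0%; 2537 had an unadjusted p under 0.05, edgeR called 0 and DESeq2 29).

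The monoecious and andromonoecious libraries, whose plants bear male flowers, were compared with the gynoecious and hermaphrodite ones. PMADS 2 was higher in both libraries with male flowers (4.13 and 6.46 RPKM) than in those without (1.85 and 3.39), with a log2 change of 0.81 ± 0.49 (SE) and a limma adjusted p of 0.664. DEFICIENS was lower in both (0.87 and 0.00 RPKM against 2.20 and 1.53), with a log2 change of -1.06 ± 0.44, an unadjusted limma p of 0.0407 and an adjusted p of 0.592. The size of that change depends on the scale, at -2.63 with a pseudocount of 0.1, -1.92 with edgeR and -1.95 with DESeq2. MADS-box transcription factor 3 was also lower in both (1.11 and 1.23 against 2.40 and 1.70), at -0.48 ± 0.42 with a limma adjusted p of 0.77. In this split 3 of 6 members had sides that did not overlap, beside 39.9% of all tested unigenes. The B class partners thus differed in direction here, and neither difference passed the test.

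By the labelled g locus, gynoecious and andromonoecious (gg) were set against monoecious and hermaphrodite (GG). APETALA 1 was higher in both gg libraries (6.86 and 5.90 RPKM against 2.07 and 3.52), with a log2 change of 0.98 ± 0.49 and a limma adjusted p of 0.917. Its unadjusted p was 0.0768 with limma, 0.0413 with edgeR and 0.0302 with DESeq2. AGAMOUS was lower in both gg libraries (2.36 and 1.99 against 4.36 and 2.69), at -0.49 ± 0.49 with a limma adjusted p of 0.943, and between -0.76 and -0.22 without 1 library. AGL6 was lower as well, at -0.52 ± 0.5 (limma adjusted p 0.942) and between -0.79 and -0.26 without 1 library, but its nearest libraries, at 3.26 and 3.21 RPKM, were only 1.02 times apart. These 3 of 6 did not overlap, beside 34.8% of all tested unigenes. Under the genotypes of the table headers, the male flower split would be the g split, and this grouping would follow neither locus.

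The a locus split is the same under either source of genotypes, and in it 0 of 6 members had sides apart, beside 25.2% of all tested unigenes. The log2 changes of aa minus AA ran from -0.62 ± 0.54 for DEFICIENS to 0.58 ± 0.59 for PMADS 2, each with a limma adjusted p of 1. No unadjusted p of a member was below 0.05 with limma, edgeR or DESeq2 in this split. By labelled g it was below 0.05 for 0 members with limma, 1 with edgeR and 1 with DESeq2. By male flowers it was for 1 with limma, 0 with edgeR and 0 with DESeq2. Over all tested unigenes, limma's unadjusted p was below 0.05 for 2.86% by the a locus, 5.14% by labelled g and 8.31% by male flowers, so such counts are near the background.

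**Figure D4:**
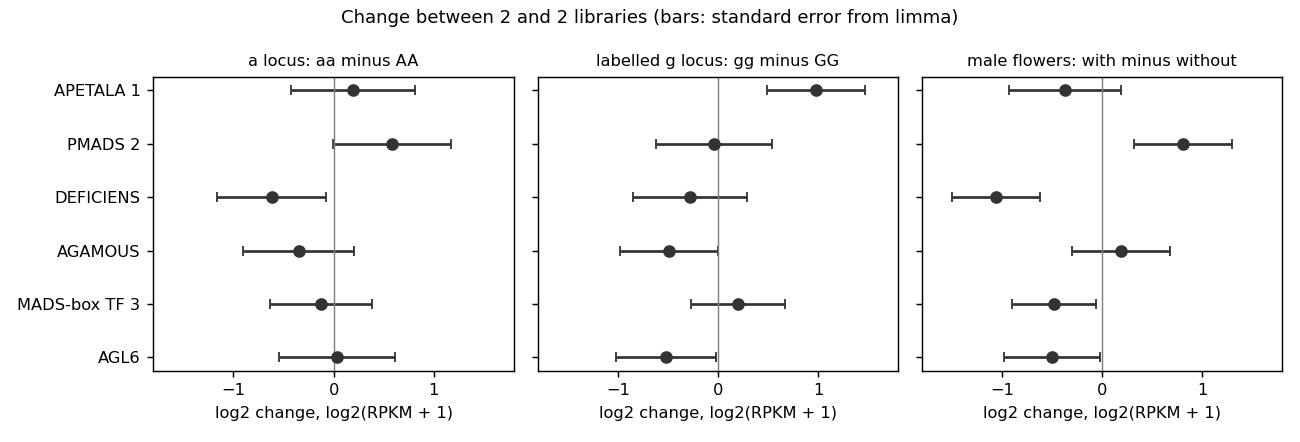
Log2 change on the log2(RPKM + 1) scale (horizontal axis) for the 6 unigenes in each of the 3 splits, with bars of 1 standard error from limma. DEFICIENS lies at -1.06 and PMADS 2 at 0.81 in the male flower split, and APETALA 1 at 0.98 in the labelled g split. None passed the adjusted threshold.

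Likeness between the 6 profiles was measured as the root mean square distance of log2(RPKM + 1), centred on each unigene's mean, over 4 libraries. MADS-box transcription factor 3 and AGL6 were nearest at 0.37, followed by AGAMOUS and AGL6 at 0.39 and APETALA 1 and MADS-box transcription factor 3 at 0.42. Pearson correlation ranked the pairs otherwise, with DEFICIENS and MADS-box transcription factor 3 highest at 0.78, against 0.34 for MADS-box transcription factor 3 and AGL6. PMADS 2 and DEFICIENS were farthest apart in distance, at 1.11, and had the lowest correlation, at -0.96. Against described unigenes with a match of at least 95% identity over 100 nt or more and at least 100 reads, much nearer profiles existed, as they must among about 2865 candidates and 4 libraries.

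APETALA 1 was nearest to the receptor-like kinase ALE2 (Unigene26872, distance 0.021), and then to argonaute 4A (Unigene23538, 0.074) and sulfhydryl oxidase 1 (Unigene52556, 0.077). PMADS 2 was nearest to a Src homology-3 domain protein (Unigene40161, 0.036), syntaxin-71 (Unigene9053, 0.057) and telomere repeat-binding protein 5 (Unigene33943, 0.071). DEFICIENS was nearest to the auxin response repressor IAA13 (Unigene28901, 0.047), linalool synthase (Unigene2262, 0.06) and D-glycerate 3-kinase (Unigene29268, 0.103). IAA13 had 224 monoecious, 426 gynoecious, 312 hermaphrodite and 107 andromonoecious reads. It was picked for its likeness, so its order of libraries is no second measurement of the DEFICIENS pattern.

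AGAMOUS was nearest to a pentatricopeptide repeat protein (Unigene49879, 0.037), a glycerol-3-phosphate transporter (Unigene25287, 0.05) and a receptor-like kinase (Unigene2414, 0.069). MADS-box transcription factor 3 was nearest to cytochrome P450 90B1, a brassinosteroid synthesis enzyme (Unigene35234, 0.022), to a WW domain oxidoreductase (Unigene41270, 0.025) and to a glycerol-3-phosphate dehydrogenase (Unigene6545, 0.034). AGL6 was nearest to the kinase WNK2 (Unigene14597, 0.018), to squalene synthase, which makes the precursor of sterols (Unigene33658, 0.019), and to the methyltransferase PMT7 (Unigene6828, 0.055).

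The other MADS unigenes show how much of the organ identity machinery the libraries held. Besides the 6 there were 18, of which 11 passed the filter and 0 were called by limma in any split, with an unadjusted p under 0.05 for 0 of them by the a locus, 1 by labelled g and 1 by male flowers, beside the 2.86%, 5.14% and 8.31% of all unigenes. Of the E class, MADS-box protein CMB1 (Unigene64727) had 0 monoecious, 2 gynoecious, 0 hermaphrodite and 0 andromonoecious reads. MADS-box transcription factor 8 (Unigene69179) had 2, 6, 14 and 5. The AGL8 homolog (Unigene71341), named after an Arabidopsis relative of APETALA 1, had 4, 1, 0 and 2 reads. These were named for their class after their values were seen, and their reads are too few to compare. The MADS unigene with the most reads (10708) was a putative MADS-box protein of no stated class (Unigene20792), at 44.6 to 84.1 RPKM. AGL19 (Unigene41731), which promotes flowering in Arabidopsis, reached 108 RPKM in the gynoecious library, against at most 6.86 RPKM for any of the 6.

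Of the 11 other MADS unigenes with at least 50 reads, 5 were at least 4-fold apart between highest and lowest library (45.5%, beside 26.1% of all 44542 such unigenes). Among the 6, only DEFICIENS was, by its bound. AGL21 (Unigene27231), a root regulator in Arabidopsis, had 309 monoecious, 18 gynoecious, 56 hermaphrodite and 77 andromonoecious reads. The remaining 4, named because they are few, were SVP (Unigene18466), SOC1 (Unigene27087 and Unigene34961) and MADS-box transcription factor 27 (Unigene71353). SVP represses and SOC1 promotes flowering in Arabidopsis. The SVP unigene had 13, 13, 70 and 23 reads, and the SOC1 unigenes had 30, 38, 30 and 8, and 5, 48, 25 and 17, in the same order. Of the SOC1 unigenes, Unigene34961 had its best BLAST match at 85.37% identity and Unigene27087 had no listed identity.

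**Figure D5:**
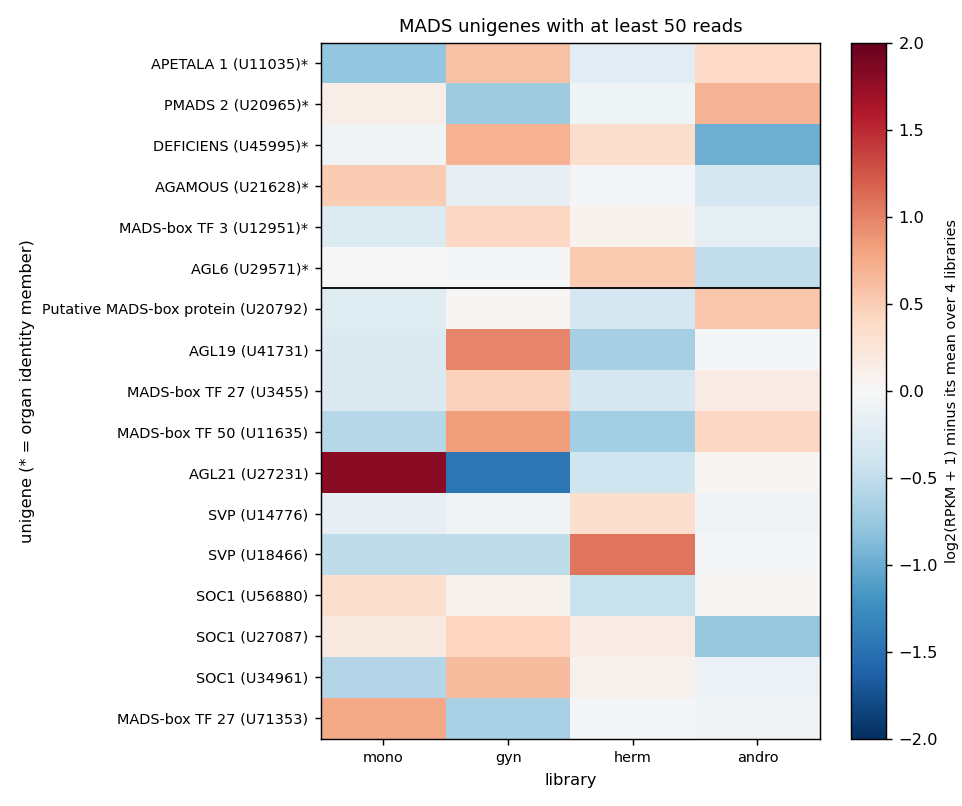
Log2(RPKM + 1) of each MADS unigene with at least 50 reads, minus its mean over the 4 libraries, as a colour from blue (lower) to red (higher); the 6 organ identity unigenes, marked with a star, stand above the black line. AGL21, with 309 monoecious and 18 gynoecious reads, has the strongest colours, and none of the other rows shares the DEFICIENS minimum of 0 andromonoecious reads. Unigenes with fewer reads are not drawn, among them CMB1, which also had 0 andromonoecious reads.

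Regulators that act beside or upstream of organ identity genes were listed by annotation. Of 55 floral regulator unigenes, 45 were tested and 0 were called by limma in any split, with an unadjusted p under 0.05 for 1 by the a locus, 5 by labelled g and 4 by male flowers, beside the same 2.86%, 5.14% and 8.31%. At least 4-fold apart were 12 of 41 with enough reads (29.3%, beside the same 26.1%). SEUSS, a corepressor that keeps AGAMOUS off in the outer whorls of Arabidopsis flowers, had 3 unigenes. Unigene3769 had 186 monoecious, 921 gynoecious, 354 hermaphrodite and 360 andromonoecious reads. Unigene16402 had 21, 205, 132 and 112. Both were highest in the gynoecious and lowest in the monoecious library. Unigene66547, named because its group is small, had 6, 3, 4 and 1 reads, too few to compare.

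The other regulators named, taken for a range of at least 4-fold and by their reads, differed in order. BEL1, a regulator of ovule development in Arabidopsis (Unigene17194, matched at 87.18%), had 88 monoecious, 4 gynoecious, 73 hermaphrodite and 24 andromonoecious reads. The knotted-1-like 1 unigene (Unigene4946, matched at 84.56%), of a family active in shoot meristems, had 509, 100, 486 and 331 reads. Knotted-1-like 2 (Unigene23993, matched at 84.88%) had 840, 125, 1617 and 422. Squamosa promoter-binding-like protein 6 (Unigene21649) had 392, 80, 135 and 263 reads. CONSTANS-LIKE 12 (Unigene16262) had 463, 287, 551 and 1657 reads. It was highest in the andromonoecious library and, like each of the 4 before it, lowest in the gynoecious. Other homeobox unigenes of the list differed in their highest library. Knotted-1-like 3 (Unigene76, matched at 90.20%), with 92, 257, 150 and 93 reads, was highest in the gynoecious. BEL1-like 8 (Unigene15880, matched at 85.54%), with 204, 403, 890 and 266, was highest in the hermaphrodite. WUSCHEL-related homeobox 1 (Unigene30722), with 993, 829, 565 and 681, was highest in the monoecious.

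The authors' deposited tables of differing genes list none of the 6 CDS, in any of their 4 comparisons or either locus table. Hermaphrodite against monoecious is not among the comparisons, nor is andromonoecious against gynoecious, where PMADS 2 had its ratio of 3.96. The tables hold only 128 to 1058 distinct CDS each, so the absence of 6 says little about the members. Those tables name other MADS genes, the SOC1 CDS MELO3C006159 and the SVP CDS MELO3C011093.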

How the data were processed

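The authors deposited RPKM for every unigene and library. Per the file headers, their comparison tables also hold raw read counts beside library totals, a log2 ratio, a p-value and a false discovery rate, and the BLAST table holds percent identity. For the aligner, the assembler and the handling of reads shared by related genes, nothing is given in the sources used here. 8 per-library columns of the locus tables were not used.

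Whole reads were recovered from RPKM and the library totals, taking the shortest length from 200 to 20000 nt, and not below the end of the BLAST match, that gave whole reads in all 4 libraries. This succeeded for 100% of unigenes, and 1009 of 1049 (96.2%) had the length and reads that the authors list for gynoecious against monoecious. Too short a length would lower the reads of a unigene in every library alike. The recovered lengths of PMADS 2 (807 nt) and DEFICIENS (436 nt) end with their match.

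The planned design allowed for counts or RPKM, and RPKM was found, so limma 3.58.1 with a trend was applied to log2(RPKM + 1) of unigenes passing edgeR's filterByExpr (minimum count 10), with Benjamini-Hochberg adjustment. Ratios use TMM factors (edgeR 4.0.16) and Clopper-Pearson intervals. A p-value here reflects the spread among 4 bulks and no more. Fold changes on the log2(RPKM + 1) scale understate those of low unigenes. Alternatives were a pseudocount of 0.1, no filter, other scalings, edgeR's quasi-likelihood test and DESeq2 1.42.0 on recovered reads, leaving out each library and, chosen after seeing the data, the other locus as a term. The fits were also run on simulated reads with a single fixed dispersion and no second locus. Those settings differ from these bulks, so that run does not check the splits.

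Members and lists were chosen with earlier results of these data known. Named were all 6 members, at most 8 listed regulators at least 4-fold apart with at least 50 reads in total, by reads, and the 3 nearest profiles per member. Lists were matched by words in the annotation.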

Additional observations from a re-analysis of the deposited data

Results flagged for a closer look

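For 4 members, and for AGL6 in both ways of pairing, the ratio between a pair of libraries pointed one way and the ratio between the other pair pointed the opposite way, each with a counting interval off 1. The same held for 46.2% of all 49319 tested unigenes, so 4 of 6 is no more than a description. There is 1 library per sex type, so none of these differences was tested.

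APETALA 1 was 2.96 times as high in the andromonoecious as in the monoecious library, but hermaphrodite over gynoecious was 0.509. PMADS 2 was 0.409 for gynoecious over monoecious and 2.18 for andromonoecious over hermaphrodite. DEFICIENS was 2.31 for gynoecious over monoecious, while andromonoecious over hermaphrodite was 0, that is, 0.202 with 3 reads in place of 0 and up to 0.276 by the exact interval. AGL6 was 1.43 for hermaphrodite over monoecious and 0.719 for andromonoecious over gynoecious. Paired the other way, it was 0.645 for andromonoecious over monoecious and 1.59 for hermaphrodite over gynoecious.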

How the results depend on the processing

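No paired analysis was possible because the labels give no replicate numbers that pair libraries and each sex type has 1. With the other labelled locus as a term (the a locus for the male flower split), an alternative chosen after seeing the data that leaves 1 residual degree of freedom, the members kept their changes and none passed, while the unigenes called by male flowers went from 1 to 47. Scaling by library totals or by DESeq2 size factors kept the direction and side of all 66 member ratios tried. The log2 changes of members kept direction and side in 124 fits that used all libraries. In the other 2, PMADS 2 in the labelled g split, near 0 at -0.04, turned to 0.22 with edgeR and 0.20 with DESeq2.

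The male flower change of DEFICIENS went from -1.06 to -2.63 with a pseudocount of 0.1, -1.92 with edgeR and -1.95 with DESeq2. Leaving out 1 library turned 13 of 72 member changes, none of which had passed the threshold. Such a fit leaves 1 library on a side, so its spread comes from the libraries of the other side alone. In the a locus split the ranges were -0.49 to 0.87 for APETALA 1, -1.29 to 0.05 for DEFICIENS, -0.47 to 0.22 for MADS-box transcription factor 3 and -0.48 to 0.54 for AGL6, with 0.16 to 1.00 for PMADS 2 and -0.69 to -0.01 for AGAMOUS. In the labelled g split they were -0.73 to 0.65 for PMADS 2, -1.12 to 0.56 for DEFICIENS and -0.10 to 0.51 for MADS-box transcription factor 3, with 0.70 to 1.26 for APETALA 1, -0.76 to -0.22 for AGAMOUS and -0.79 to -0.26 for AGL6. In the male flower split they were -0.96 to 0.21 for APETALA 1 and -0.24 to 0.61 for AGAMOUS. DEFICIENS in that split ran from -1.51 to -0.60, PMADS 2 from 0.49 to 1.12, MADS-box transcription factor 3 from -0.65 to -0.32 and AGL6 from -0.78 to -0.23.

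The count of all unigenes called was unstable, and the cause was not tested. In the a locus split it went from 6 to 3 with a pseudocount of 0.1, 3 with no filter, 3 with TMM factors, 3 with DESeq2 size factors, 0 with edgeR (1013 at an unadjusted p under 0.05) and 27 with DESeq2, and from 0 to 556 when a library was left out. In the labelled g split it went from 0 (2537 unadjusted) to 29 with DESeq2, and from 0 to 847 when a library was left out. In the male flower split it went from 1 to 0 with a pseudocount of 0.1, 0 with no filter, 0 with edgeR (3305 unadjusted) and 276 with DESeq2, and from 0 to 352 when a library was left out. Asking for at least 100 reads in a pair left 862 unigenes at least 4-fold apart in hermaphrodite against monoecious, 834 in andromonoecious against monoecious, 1295 in hermaphrodite against gynoecious, 1763 in andromonoecious against gynoecious and 658 in hermaphrodite against andromonoecious, since fewer unigenes were counted. Within-library ratios under the authors' listed lengths were not run, as none of the 6 is listed. Depth limits DEFICIENS most, at 53 reads.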
